A study of Homo sapiens and Mus musculus with 8 samples.

Results

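The Ccr2, Vcan and Plac8 monocyte-like barcodes were 1178 droplets, out of 33428 in all, from immune cells sorted out of SKOV3 tumors in mice. Each droplet carries a cell barcode, and each captured RNA molecule carries a unique molecular identifier (UMI), so that the UMIs of a gene count its molecules. A barcode was a member when it held 1449 to 46340 UMIs, 725 to 5792 genes and under 15% mitochondrial UMIs, fewer than 100 UMIs of S100a8 and S100a9 per 10000, at least 8 UMIs of Ccr2, Vcan and Plac8 together, fewer than 3 of Folr2 and Ccl8 and fewer than 4 of Mki67 and Top2a. The limits on depth and quality left 26658 barcodes, and the members were 4.42% of these (exact 95% interval 4.18% to 4.67%). They were compared with 5782 macrophage barcodes, which held at least 20 UMIs of C1qa, C1qb and C1qc per 10000 and fewer than 8 UMIs of the 3 monocyte genes, under the same limit on S100a8 and S100a9. The limits on Folr2 and Ccl8 and on Mki67 and Top2a were set for the members alone, and the macrophages were not filtered by them. The members therefore differ from the macrophages in all these genes by construction. Since the members were chosen by their own counts of these genes, the differences described here in other genes are given with no test. The part of the unequal limits in those differences was not tested.

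The tumors grew under the skin of NSG mice, aged 6-8 weeks at the start, which lack T, B and NK cells and keep myeloid cells. SKOV3 is a human ovarian cancer line with high HER2, and the injected cells carried a lentiviral guide against GAL4, a control with no target in human cells (sgGAL4), or against the autophagy gene ATG9A (sgATG9A), after puromycin selection. Per the study's methods the sequenced tumors came from mice given trastuzumab, an antibody against HER2, at 10 mg/kg, and were collected after 6-7 weeks. The sample labels also name a human IgG control and a diet with the CSF1R inhibitor PLX5622 at 1200 ppm for all 4 tumor samples, without saying which samples received which. For each condition 2 libraries were made, each from 3 pooled tumors, of live CD45+ cells. The matrix marks its libraries only with the numbers 1 to 4, which the labels do not tie to sgGAL4 or sgATG9A. Values are therefore given for each library number, no comparison is made between conditions, and the libraries are not averaged as replicates.

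Monocytes are made in the bone marrow, leave it through the chemokine receptor CCR2 and enter inflamed tissues and tumors, where they can mature into macrophages or into cells that present antigen. Mouse classical monocytes are known for Ly6c2, Ccr2, Chil3, F13a1 and Vcan. Maturing macrophages of tissues are known for the complement component C1q, apolipoprotein E and the scavenger and lipid receptors. Of the 3 genes in the rule, Ccr2 encodes the receptor for the chemokine CCL2, Vcan the matrix proteoglycan versican, and Plac8 a small cysteine-rich protein that is abundant in several myeloid and lymphoid cells.

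The members' numbers and shares differed several-fold between the libraries. Library 1 held 535, library 2 held 94, library 3 held 331 and library 4 held 218 members, which were 7.36%, 1.28%, 5.83% and 3.42% of the barcodes within the limits. Library 2 was low and library 1 high, and the order was another one when members were taken as a share of members and macrophages together, at 19.6%, 15.51%, 10.9% and 35.9% in libraries 1 to 4. Library 4 then stood highest and library 3 lowest. Without the clusters 3 and 4 described below, which hold markers of other cell types, these shares were 19.4%, 11.0%, 10.4% and 24.0%. Median depth of the members was 17511, 19803.5, 16446 and 16238.5 UMIs in libraries 1 to 4. Without clusters 3 and 4 it was 17469, 22277, 16383 and 22619. The rule favors deep barcodes, so the members' depth does not show how deep each library was. The part of depth, the digestion and the sort in these differences was not tested.

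**Figure D1:**
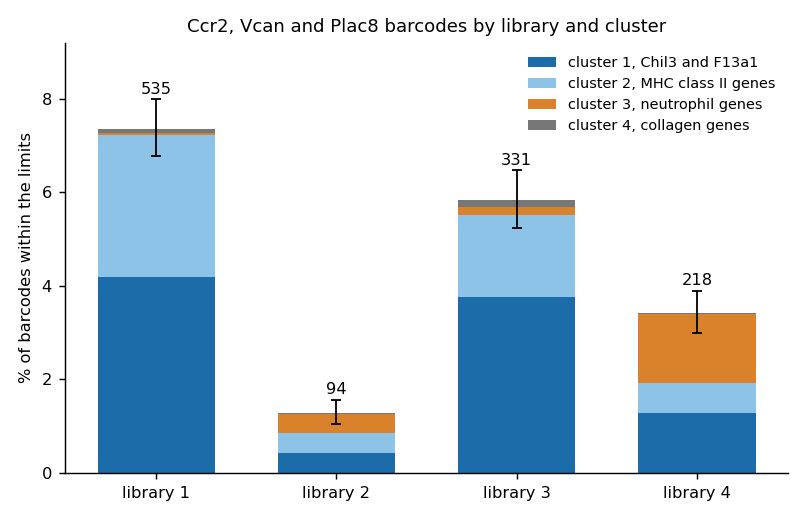
Members as a percent of the barcodes within the limits in each library, stacked by cluster 1 to 4, with exact 95% intervals of the whole share and the number of members above each bar. Library 1 has the highest share at 7.36% and library 2 the lowest at 1.28%, and most of cluster 3 lies in libraries 2 and 4.

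A single gene often carried a barcode into the group. Plac8 alone reached 8 UMIs in 66.8% of members, Ccr2 alone in 43.2% and Vcan alone in 17.3%. At least 1 UMI was found for Plac8 in 84.0%, for Ccr2 in 78.3% and for Vcan in 49.3%, and for all 3 genes in 38.8%. The median of the summed UMIs was 22 and the highest 172. Among macrophages 21.1% had a UMI of Ccr2, 7.06% of Plac8 and 2.84% of Vcan. Across libraries 1 to 4 the members' levels were 4.02, 3.53, 4.27 and 3.73 UMIs per 10000 for Ccr2, 2.79, 1.62, 1.77 and 1.86 for Vcan, and 13.4, 11.0, 11.3 and 12.3 for Plac8. Each of these levels was above that of the macrophages of its library, which the rule fixes. Because the rule asks for a number of UMIs, it favors deep barcodes: members had a median of 17104 UMIs and 2.34% mitochondrial UMIs, and macrophages 15417.5 and 3.24%. Of 1643 barcodes that met the monocyte genes and the depth limits, 323 were left out for S100a8 and S100a9, 83 for Folr2 and Ccl8 and 64 for Mki67 and Top2a, some of them for more than 1 reason.

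The limit of 8 UMIs cut through a continuum. The 158 members with 8 or 9 UMIs held Chil3 at 1.80, S100a4 at 7.92, Apoe at 26.5 and C1qa at 16.4 UMIs per 10000. In the 255 barcodes just below the limit, with 6 or 7 UMIs, the values were 1.38, 9.30, 25.1 and 19.7. The barcodes just inside the limit held slightly more Chil3 and less S100a4 and C1qa than those just outside it, at a median depth of 12342.5 and 10460.0 UMIs. Of the members, 158 (13.4%) also met the C1q limit of the macrophages, and 1048 (89.0%) held at least 4 UMIs of Cd14, the co-receptor for lipopolysaccharide. Across the libraries 105 cell barcodes occurred more than once, 7 members were among them, and none was a member in more than 1 library.

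The label monocyte-like held for most members and not for all. When the members were divided by k-means into 4 clusters from their variable genes, without the genes of the rule, cluster 1 held 632 barcodes (53.7%), cluster 2 held 392 (33.3%), cluster 3 held 136 (11.5%) and cluster 4 held 18 (1.53%). Clusters are made from the same counts that describe them, so their genes are given as a description. A cluster's level is compared with the level over all other members, in UMIs per 10000.

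Cluster 1 was led by Plcb1, a phospholipase C, at 5.67 against 0.688. Arg1, the enzyme that splits arginine (6.10 against 0.928), Inhba, a subunit of activin (1.02 against 0.212), Met, the receptor for hepatocyte growth factor (2.87 against 0.635), and Chil3, a secreted chitinase-like protein of monocytes (9.01 against 2.13), followed. F13a1, the coagulation factor XIII A chain, stood at 7.67 against 2.05, and F10, coagulation factor X, at 3.92 against 1.16. All 3 genes of the rule were found in 57.4% of these barcodes. Since every member was chosen by these genes, that share does not bear on the cluster's name. Chil3 and F13a1 are classical monocyte markers, and the summed level of the 15 listed markers of that cell type was 106 UMIs per 10000 in this cluster, against 54.9 in cluster 2 and 67.1 in macrophages. This cluster is called monocyte-like.

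Cluster 2 was led by Ctnnd2, a catenin, at 1.14 against 0.0191, and by the genes of MHC class II, which presents peptides to T cells. H2-Eb1 stood at 43.0 against 1.14, H2-Ab1 at 37.8 against 1.497, H2-Aa at 57.4 against 2.51 and the invariant chain Cd74 at 86.2 against 8.29. Ciita, the master regulator of MHC class II, was at 0.852 in cluster 2 and 0.0725 in cluster 1, and Flt3, the receptor that dendritic cells depend on, at 0.561 and 0.0335. Chil3 was at 2.39 against 9.01 in cluster 1. Of the genes of the rule, Ccr2 was as high here, at 4.47, as in cluster 1, at 4.16, whereas Vcan was at 0.604 against 3.52. The rule ties these genes to one another in every member, so their levels are given as a description. The summed level of the listed markers of conventional dendritic cells was 3.96 in cluster 2, 0.366 in cluster 1 and 0.304 in macrophages. None of those markers was among the leading genes, so the cluster keeps its number.

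Cluster 3 carried the genes of neutrophils, and these barcodes entered the group through Plac8 alone in 86.0% of cases. G0s2, an inhibitor of lipolysis, stood at 23.1 UMIs per 10000 against 0.351 in the other members, Hdc, which makes histamine, at 19.6 against 0.451, and Cxcr2, the chemokine receptor of neutrophils, at 4.03 against 0.0797. The summed level of 16 neutrophil markers was 142 in cluster 3, 217 in the barcodes at or above the S100a8 and S100a9 limit and 6.99 in the members of clusters 1 and 2. S100a8 and S100a9, the pair of proteins that neutrophils hold in great amounts, had a median of 23.6 per 10000 and a highest value of 98.9 in this cluster, under the limit of 100. Its barcodes were shallow, with a median of 4805 UMIs and 1614.5 genes, and 0.192% mitochondrial UMIs. Ccr2 was found in 10.3% of them. The cluster made up 0.561%, 31.9%, 3.02% and 42.7% of the members in libraries 1 to 4, so it was common in libraries 2 and 4 and rare in 1 and 3.

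Cluster 4 held 18 barcodes with the genes of fibroblasts. Col1a1, a chain of type I collagen, stood at 189 UMIs per 10000, against 0.0263 in cluster 1, and Col3a1 at 157, against 0.0204 in the other members. The endothelial genes Pecam1, Cdh5 and Kdr were at 0, and Ptprc, which encodes the CD45 antigen of the sort, was at 0.158, against 11.2 in macrophages. Ccr2 was found in none of the 18 barcodes, and the 3 UMIs that a count of 0 allows would be a level of 0.0675 UMIs per 10000. Vcan, which fibroblasts also make, was at 3.08 and Plac8 at 6.98. The fibroblast-like barcodes fell 7, 1, 8 and 2 into libraries 1 to 4.

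**Figure D2:**
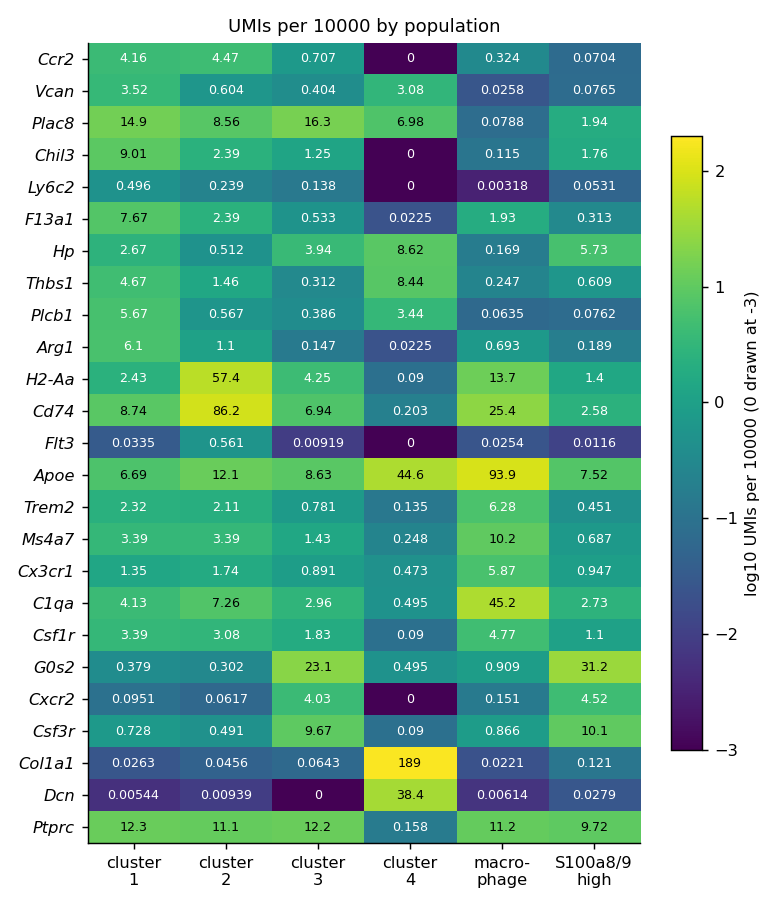
UMIs per 10000 (printed in each cell, color on a log10 scale, values of 0 drawn at -3) of 25 genes in clusters 1 to 4 of the members, in macrophages and in barcodes at or above the S100a8 and S100a9 limit. Chil3 is highest in cluster 1 at 9.01, H2-Aa in cluster 2 at 57.4, G0s2 in cluster 3 and the S100a8 and S100a9 high barcodes at 23.1 and 31.2, and Col1a1 in cluster 4 at 189.

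Dividing the members into 6 clusters in place of 4 kept 132 neutrophil-like and 18 fibroblast-like barcodes apart and put most of cluster 1 into 2 groups. One group of 402 barcodes, 397 of them from cluster 1, had the higher Chil3, at 12.8 UMIs per 10000. Hp, the hemoglobin-binding haptoglobin, was at 3.93 and Ifitm6 at 1.53. Its leading gene was Adgre4, an adhesion receptor listed here for non-classical monocytes, at 1.04 against 0.0881 in the other members. Itgal, of the same list, was at 1.02 against 0.312. Another group of 286 barcodes, 232 from cluster 1, 50 from cluster 2 and 4 from cluster 3, had Spp1, which encodes osteopontin, at 20.9 UMIs per 10000, Arg1 at 9.78, the chemokines Ccl7 at 5.83 and Ccl12 at 4.69, and the interferon-induced Rsad2 at 8.58. Apoe stood at 2.12 in the Chil3-high group and 15.7 in the Spp1-high group, and C1qa at 1.33 and 9.01. F13a1 was at 6.79 and 8.26, so the marker did not separate them as Chil3 and Ifitm6 did, the latter at 1.53 and 0.102.

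The Chil3-high group held 192, 24, 112 and 74 barcodes of libraries 1 to 4 and the Spp1-high group 136, 14, 125 and 11, so few members of library 4 lay in the latter. Within cluster 1 the libraries differed in the genes of these groups. Adgre4 stood at 0.167, 0.318, 0.774 and 1.90 UMIs per 10000 in libraries 1 to 4, and Saa3, an acute phase protein, at 2.15, 2.54, 2.67 and 15.3. Library 4 was highest in both. The summed level of the 10 listed non-classical monocyte markers in cluster 1 was 3.66, 4.32, 7.13 and 11.6 in libraries 1 to 4. Rsad2 stood at 5.12, 1.16, 3.65 and 0.231, Arg1 at 5.88, 5.03, 9.04 and 1.39, Spp1 at 7.99, 5.67, 16.3 and 3.17, and Thbs1, the matrix protein thrombospondin, at 6.46, 4.73, 3.80 and 1.00. Library 4 was lowest in all 4 of these. Chil3 itself was at 7.95, 10.9, 7.05 and 15.3. Plcb1 varied little, at 6.15, 5.02, 4.88 and 6.06. In cluster 2 the MHC class II gene H2-Aa stood at 63.5, 54.4, 44.5 and 58.7 UMIs per 10000 in libraries 1 to 4. Since tumors were pooled and the conditions of the numbers are not known, differences between tumors, conditions and handling cannot be told apart.

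Against macrophages of the same library, 88 of 2036 genes (4.32%) were at least 2-fold higher in the members in all 4 libraries, and 78 (3.83%) at least 2-fold lower. The genes counted had at least 1 UMI per 10000 in either population, and genes of the rule and mitochondrial genes were left out. A ratio divides the summed UMIs per 10000 of the members by those of the macrophages within a library, and the median over the 4 libraries is given on the log2 scale with its lowest and highest. When clusters 3 and 4 were left out, 78 of 2031 genes (3.84%) were higher and 82 (4.04%) lower, of which 66 and 75 were among those of all members. At a lower minimum of 0.2 UMIs per 10000, 263 of 6376 genes (4.12%) were higher and 208 (3.26%) lower, and without clusters 3 and 4 the counts were 215 (3.4%) and 217 (3.44%) of 6317.

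Chil3 had the highest ratio among the genes that kept it without clusters 3 and 4. Its levels were 5.36, 4.93, 5.31 and 8.88 UMIs per 10000 in members of libraries 1 to 4 and 0.174, 0.0251, 0.0810 and 0.126 in macrophages, a median log2 ratio of 6.09 (4.94 to 7.62). The member level was above the macrophage level in each library, and 53.3% of members and 5.52% of macrophages had at least 1 UMI. Plcb1 stood at 3.82, 2.18, 3.36 and 3.10 in members and at 0.0833, 0.0188, 0.0474 and 0.123 in macrophages, with a median log2 ratio of 5.83. Met was at 2.48, 1.73, 1.52 and 0.846 UMIs per 10000 in members, with a log2 ratio of 5.10 (4.35 to 5.75), and Htr7, a serotonin receptor, had a log2 ratio of 4.96. Timp1, which inhibits matrix metalloproteinases, was at 1.30 against 0.0584 UMIs per 10000 over all libraries, a median log2 ratio of 4.37 (4.25 to 5.99). Areg, the growth factor amphiregulin, was at 1.28 against 0.239, with a median log2 ratio of 3.56 that ran from 1.53 to 3.81.

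The calcium-binding proteins S100a4 and S100a6 were higher in all 4 libraries. S100a4 stood at 15.97, 16.9, 14.8 and 14.2 UMIs per 10000 in members and 1.13, 1.46, 1.85 and 2.60 in macrophages, a log2 ratio of 3.27 (2.44 to 3.82), and S100a6 at 20.9 against 2.42 over all libraries. Thbs1 was at 4.77, 2.55, 2.78 and 0.633 in members and 0.369, 0.140, 0.153 and 0.311 in macrophages. Its log2 ratio of 3.94 reached down to 1.02 in library 4, where the member level was lowest. Hp was at 1.56, 1.35, 1.59 and 4.52 in members and 0.0945, 0.177, 0.0940 and 1.09 in macrophages, both highest in library 4. Its median log2 ratio was 3.49 (2.06 to 4.08), with the lowest value in library 4. F10 had a log2 ratio of 3.06 (1.77 to 3.67).

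The collagen genes had the largest ratios of all, and these rested on the 18 barcodes of cluster 4. Col3a1 had a median log2 ratio of 8.56, Col1a1 of 7.83, Col1a2 of 7.36 and Sparc, a collagen-binding matrix protein, of 3.29. Without clusters 3 and 4 the values were 0.47 for Col3a1, 0.65 for Col1a1, -0.22 for Col1a2 and -2.67 for Sparc. None of the 4 genes was counted as higher then.

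**Figure D3:**
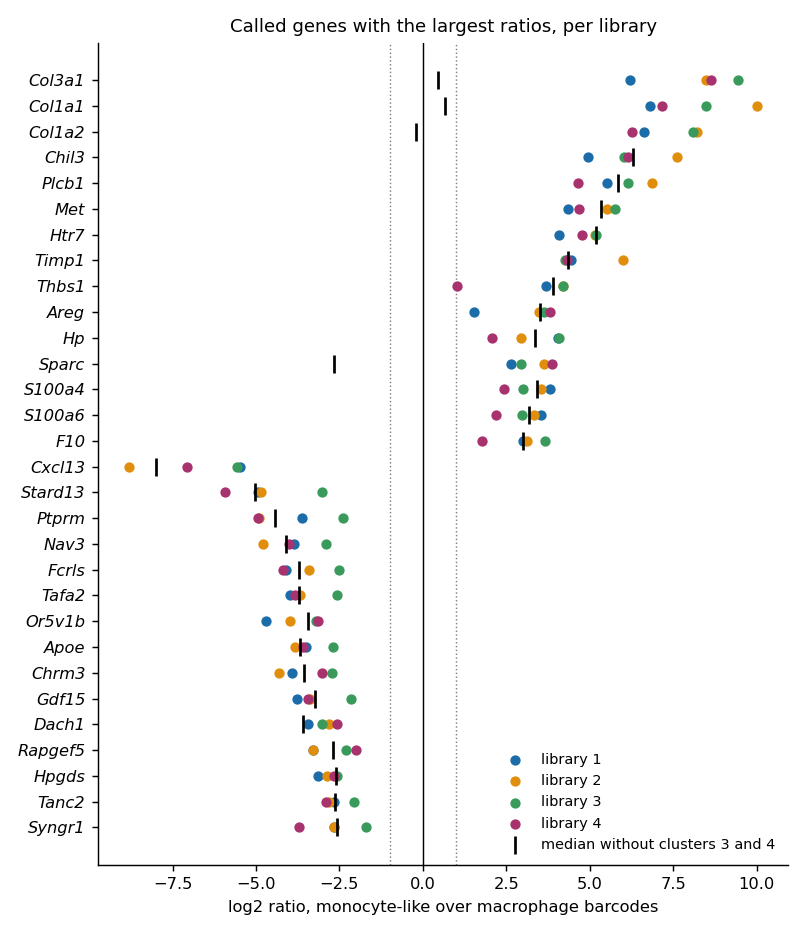
Log2 ratio of UMIs per 10000, members over macrophages, in each of the 4 libraries (colored points) for the 15 highest and the 15 lowest genes by median ratio, with a black tick at the median without clusters 3 and 4 and dotted lines at 2-fold. The black ticks of Col3a1, Col1a1, Col1a2 and Sparc lie far from their points, at 0.47, 0.65, -0.22 and -2.67, that of Cxcl13 is at -8.003 and that of Chil3 at 6.29.

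Among the genes lower in members, Cxcl13, the chemokine that draws B cells, stood apart. Its levels were 0.108, 0.0361, 0.123 and 0.161 UMIs per 10000 in members of libraries 1 to 4 and 4.84, 16.1, 5.92 and 21.6 in macrophages, a median log2 ratio of -6.33 (-8.80 to -5.49). Without clusters 3 and 4 it was -8.003 (-9.58 to -5.49), with 2 UMIs in members of library 2 taken as 3, and 44 of the 56 UMIs in members of library 4 lay in cluster 3. Macrophages of libraries 2 and 4 were the high ones. Apoe, which carries cholesterol and lipids, stood at 9.17, 7.81, 12.48 and 7.401 in members and at 105, 110.3, 80.7 and 89.8 in macrophages, a log2 ratio of -3.56 (-3.82 to -2.69). Every member level was under every macrophage level. Fcrls, a scavenger receptor-like gene of microglia and other resident macrophages, was at 0.249 against 2.66 UMIs per 10000, the stress cytokine Gdf15 at 0.190 against 1.86 and Hpgds, which makes prostaglandin D2, at 0.530 against 3.89. Their median log2 ratios were -3.76, -3.42 and -2.76. Stard13, Ptprm, Nav3, Tafa2, Or5v1b, Chrm3, Dach1, Rapgef5, Tanc2 and Syngr1 filled the remaining places among the 15 lowest, with median log2 ratios from -4.89 to -2.67. All 15 stayed at least 2-fold lower in all 4 libraries without clusters 3 and 4.

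Lists of genes by role are set beside the median log2 ratio over all 2036 genes, which was 0.10, and 0.13 without clusters 3 and 4. Of all 2036 genes 4.32% were at least 2-fold higher in all 4 libraries and 3.83% at least 2-fold lower. Of 2031 genes without clusters 3 and 4 the shares were 3.84% and 4.04%. A count in a short list that lies near these shares says nothing particular of the list. Of 15 classical monocyte genes 10 reached the level to be counted, 6 were higher in all 4 libraries and none lower, with a median log2 ratio of 1.46 (1.45 without clusters 3 and 4). Besides Chil3 and Hp these were F13a1 at a log2 ratio of 1.42, the membrane protein Ms4a4c at 1.49, Emilin2, a glycoprotein of the extracellular matrix, at 1.96 and the lectin receptor Clec4e at 1.60, which was at 1.32 and no longer 2-fold higher in all 4 libraries without clusters 3 and 4. Fn1, which encodes fibronectin, had a ratio of -0.05 and Lyz2, the lysozyme of myeloid cells, of -0.55. Below the level to be counted, Ly6c2 was at 0.370 UMIs per 10000 in members (exact 95% interval 0.344 to 0.398) and 0.00318 in macrophages (0.00213 to 0.00457), and Ifitm6 was at 0.692 and 0.0167. The low Ly6c2 count meant that few barcodes showed it: 21.5% of members and 0.415% of macrophages had a UMI. After each barcode was thinned to 1449 UMIs, the shares were 4.92% and 0.0865%, and 0.752% in the barcodes high in S100a8 and S100a9, whose median depth was 3903.5 UMIs. Chil3 was found in 30.6% of thinned members, 1.38% of macrophages and 2.40% of the S100a8 and S100a9 high barcodes.

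Of 16 macrophage genes 15 were counted, 6 were lower in all 4 libraries and none higher, with a median log2 ratio of -0.70 (-0.59 without clusters 3 and 4). Beside Apoe these were Trem2, a lipid receptor, at -1.65, Ms4a7 at -1.61, Adgre1, which encodes F4/80, at -1.50 (-1.86 to -1.22), the tetraspanin Cd63 at -2.22, and Mertk, the receptor for apoptotic cells, at -1.70. Without clusters 3 and 4 Mertk was at -1.56, and just short of 2-fold lower in 1 library at -0.998. Csf1r, the receptor on which macrophages depend and the target of PLX5622, had a log2 ratio of -0.64 and stood at 3.39 UMIs per 10000 in cluster 1, 3.08 in cluster 2 and 4.77 in macrophages. The mannose receptor Mrc1 had 0.29. The members thus held part of the macrophage genes at levels near those of macrophages and part of them far below.

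Genes of lysosomes and lipid handling had a median log2 ratio of -0.61 over the 12 of 16 counted, and Apoe, Cd63 and the protease Ctsd (-1.56) were lower. Of 7 scavenger and uptake receptors counted, Axl, at -2.25, and Mertk were lower, and Axl alone without clusters 3 and 4, at -2.27. Of 9 chemokines and chemokine receptors of monocytes 6 were counted, and Ccl12, a ligand of CCR2, was lower at -2.02 and Cx3cr1, the receptor for fractalkine, at -1.93. Cx3cr1 stood at 1.35 UMIs per 10000 in cluster 1, 1.74 in cluster 2 and 5.87 in macrophages. Of 5 adhesion genes counted Cd44, the hyaluronan receptor, was higher, with 20.7, 18.1, 19.8 and 23.8 UMIs per 10000 in members of libraries 1 to 4 and 7.23, 4.96, 5.86 and 8.36 in macrophages. Of 9 matrix and coagulation genes counted Thbs1, F13a1 and F10 were higher, and the urokinase Plau (-1.66) and Spp1 (-2.14) lower. Spp1 was at 6.40, 6.06, 14.04 and 2.90 UMIs per 10000 in members and 23.2, 32.7, 43.5 and 18.4 in macrophages.

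Of 15 genes of inflammatory cytokines and mediators 10 were counted, with a median log2 ratio of 0.71 (0.31 without clusters 3 and 4). Ptgs2, the inducible cyclooxygenase, was at least 2-fold higher in all 4 libraries at 2.20 and the chemokine Ccl4 lower at -1.62, and Il1b had 0.79, at 41.3 against 21.4 UMIs per 10000. Without clusters 3 and 4 Ptgs2 had a median of 2.06 and was at 0.33 in its lowest library, and Tnf (-1.26) and the chemokine Ccl3 (-1.88) were lower as well. Ptgs2 stood at 11.2 UMIs per 10000 in cluster 3, 7.00 in cluster 1, 3.29 in cluster 2 and 1.20 in macrophages. In the neutrophil-like cluster 3 Il1b was at 118. The 13 genes of glycolysis and hypoxia counted had a median log2 ratio of 0.62. Vegfa, the vascular growth factor, at 1.57 and Ndrg1 at 1.49 were at least 2-fold higher in all 4 libraries. Without clusters 3 and 4 Vegfa had a median of 1.42 and Ndrg1 of 1.48, and their lowest libraries, at 0.65 and 0.71, were under 2-fold. Arg1, which lack of oxygen also induces, had a median log2 ratio of 2.66 that ran from 0.51 to 3.54 and so was not counted. Of 12 transcription factors counted Bhlhe40 (1.83) and Hif1a (1.21) were higher, and of 7 interferon-induced genes counted 1, Ifitm3, which blocks virus entry, was higher with 12.3, 11.99, 12.1 and 10.6 UMIs per 10000 in members and 4.49, 3.88, 3.43 and 3.41 in macrophages. The median of the interferon list was 0.16 for all members and -0.998 without clusters 3 and 4. Rsad2 moved from 0.16 to -1.43 and Isg15 from 0.27 to -0.96.

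Genes that bear on antibody-dependent killing are given for the setting of a trastuzumab-treated tumor. Of the Fc receptors and their signaling genes 5 of 6 were counted and none was 2-fold apart in all 4 libraries, with a median log2 ratio of 0.20 (0.24 without clusters 3 and 4). Fcer1g, the signaling chain of the activating receptors, had log2 ratios from -0.11 to -0.08 over the libraries. It stood at 14.8 UMIs per 10000 in members and 15.7 in macrophages. The high-affinity receptor Fcgr1 had a median of -0.39 and the activating receptor Fcgr3 of 0.20. The kinase Syk, which signals for them, had 1.16. Values of the receptors Fcgr2b and Fcgr4, also in the list, are not given here. None of 5 counted genes of the phagocytosis checkpoints, which hold back engulfment, was called in either direction, with a median of 0.29. Among all genes 4.32% were called higher and 3.83% lower, so a count of 0 in lists this short says nothing particular of them. Of the 6 counted MHC class II genes none was either, with a median of 0.44, and cluster 2 was high and cluster 1 low in them. After thinning, H2-Aa was found in 93.6% of cluster 2, 18.0% of cluster 1 and 33.4% of macrophages. Of the growth factor receptors, Csf2rb, the shared chain of the receptors for GM-CSF and interleukin-3, was higher at 1.17, and without clusters 3 and 4 at 1.21 with its lowest library at 0.973, just short of 2-fold. Of the complement genes outside the rule C3 was higher at 1.86, and without them at 1.57, below the level to be counted.

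**Figure D4:**
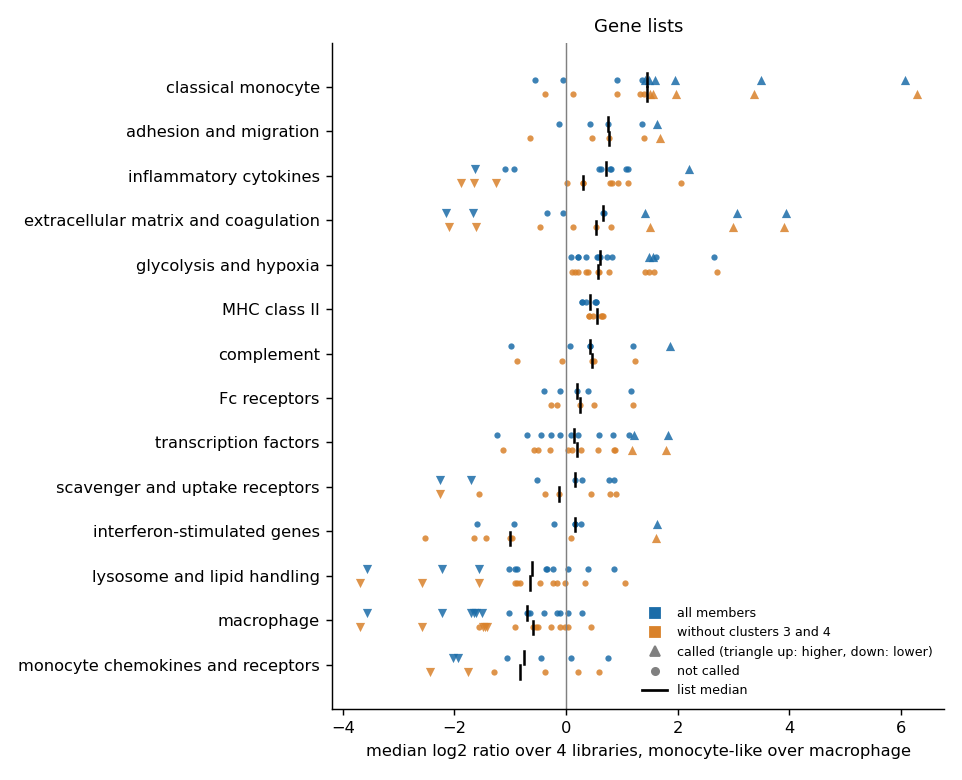
Median log2 ratio over the 4 libraries, members over macrophages, of each counted gene in 14 lists, for all members and without clusters 3 and 4, with triangles for genes at least 2-fold apart in all 4 libraries and a black tick at the list median. The classical monocyte list has its median at 1.46 and 1.45 and the macrophage list at -0.70 and -0.59, and the Fc receptor and MHC class II lists hold no triangle.

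Markers of other cell types were mostly low outside clusters 3 and 4. The 16 neutrophil markers summed to 14.2 UMIs per 10000 in all members (6.77 to 38.6 over libraries), 6.99 without clusters 3 and 4 (5.51 to 10.3) and 8.44 in macrophages (5.34 to 21.4). The fibroblast and endothelial markers summed to 11.7 in members and 0.809 without clusters 3 and 4. T, B and NK cell markers summed to 0.0175, with Ncr1 and Gzma at 0. Mast cell and basophil markers summed to 0.0769 with Prss34 and Ms4a2 at 0, eosinophil markers to 0.396 with Prg2 at 0, and platelet and red cell markers to 0.0250. In macrophages these sums were 0.0145, 0.0213 and 0.0219. Of the 10 non-classical monocyte genes only Nr4a1 reached the level to be counted, at a log2 ratio of 0.21. Conventional dendritic cell markers summed to 1.81 without clusters 3 and 4, 3.96 in cluster 2 and 0.304 in macrophages. Plasmacytoid dendritic cell markers summed to 7.70 in members and 11.3 in macrophages. A group of 23 members high in several of the latter, 22 from cluster 2 and 1 from cluster 1, is described at the end.

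Members of cluster 1 that held more C1q also held more Apoe, Ms4a7, Trem2 and Cx3cr1 and less Chil3, Plcb1 and Ifitm6. The rule used C1q for the macrophages and not for the members, and the grouping is given as a description. The levels of Ccr2, Vcan and Plac8 along C1q are left out, since the rule ties them to one another in every member. Cluster 1 was divided at its own limits into 329 barcodes with no C1q UMI, 92 with 0.312 to 0.751 per 10000 and 211 with 0.766 to 179.8. In this highest group lay the 65 barcodes of cluster 1 that also met the C1q limit of the macrophages. From the lowest to the highest group, Chil3 stood at 10.9, 9.05 and 6.198 UMIs per 10000, Plcb1 at 7.58, 4.51 and 3.37, and Ifitm6 at 1.30, 0.896 and 0.488. Apoe stood at 2.29, 3.16 and 15.1, Ms4a7 at 1.86, 2.55 and 6.10, Trem2 at 1.65, 2.02 and 3.46 and Cx3cr1 at 0.886, 0.961 and 2.24. F13a1 was at 7.77, 9.43 and 6.64.

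The libraries made up different shares of the C1q groups, with 167, 19, 84 and 59 barcodes of libraries 1 to 4 in the lowest group of cluster 1 and 90, 7, 101 and 13 in the highest. Within each library the highest group was still below the lowest in Chil3, Plcb1 and Ifitm6 and above it in Apoe, Ms4a7, Trem2 and Cx3cr1. Chil3 stood at 9.04, 11.7, 7.56 and 17.9 UMIs per 10000 in the lowest group of libraries 1 to 4 and at 6.50, 7.30, 6.25 and 3.49 in the highest. Apoe stood at 2.09, 2.08, 2.44 and 2.64 in the lowest group and at 8.28, 8.27, 22.03 and 18.2 in the highest. Cluster 2 was divided in the same way into 139, 122 and 131 barcodes, with its highest group from 2.76 per 10000. Apoe stood there at 4.77, 4.24 and 26.01 and Trem2 at 1.13, 1.43 and 3.63, while F13a1 was at 1.31, 2.64 and 3.20. Chil3 in cluster 2 was at 2.74, 0.492, 2.16 and 4.42 UMIs per 10000 in the lowest group of libraries 1 to 4. In the highest group it was at 1.75, 0.598, 1.30 and 4.92, so it was not lower in every library. The highest C1q group of cluster 1 held Apoe far below the 93.9 UMIs per 10000 of macrophages. Its median C1q was 3.21 UMIs per 10000, against 90.7 in macrophages, so this comparison was not matched in C1q. Doublets were not removed, and the part of doublets with macrophages and of free macrophage RNA in this pattern was not tested.

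**Figure D5:**
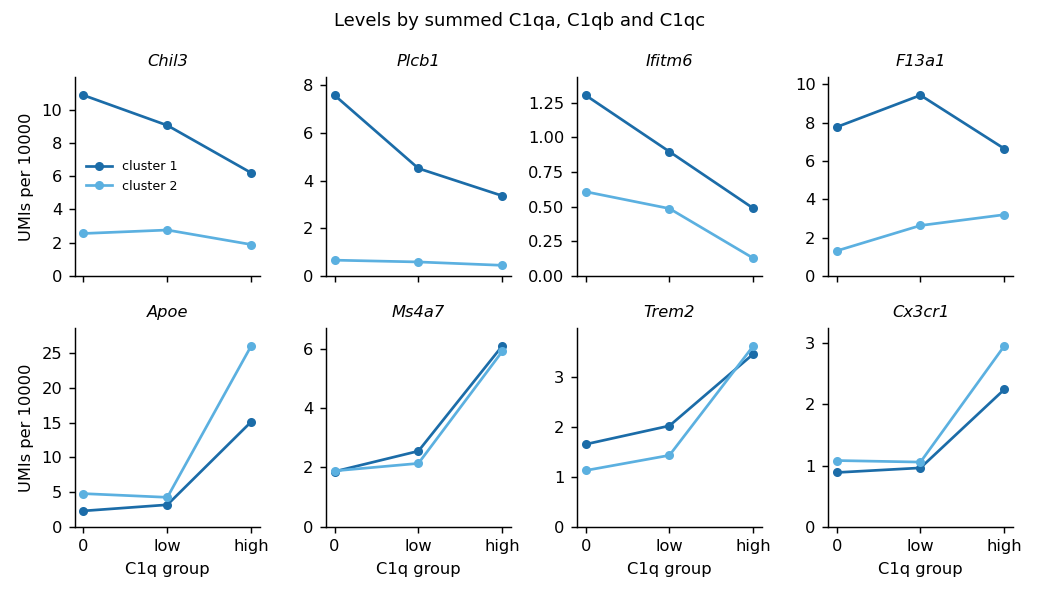
UMIs per 10000 of 8 genes in the members of clusters 1 and 2 with no, low and high summed C1qa, C1qb and C1qc, each cluster divided at its own limits and pooled over libraries. In cluster 1 Chil3 goes from 10.9 to 6.198 and Apoe from 2.29 to 15.1 between the lowest and the highest group.

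The genes of the rule lie apart in the mouse genome (GRCm39, GENCODE vM39 positions): Ccr2 on chromosome 9 at 123901982 to 123913594, Vcan on chromosome 13 at 89803431 to 89890814 and Plac8 on chromosome 5 at 100701591 to 100720111. Chil3 is on chromosome 3 at 106054870 to 106074880 and Apoe on chromosome 7 at 19430034 to 19434947. The UMIs were counted over whole genes from reads of transcript ends, so no exon is set apart.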

How the data were processed

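The deposited single-cell matrix of the 4 tumor libraries holds raw UMI counts, for which the authors used Cell Ranger 8.0.0 on mm39, and its aggregation may have subsampled reads between libraries. The bulk counts of OVCAR-8 cells were not used here, and 0 per-sample columns were left out. Levels are summed UMIs per 10000, and ratios were taken within a library, with counts under the floor of 3 UMIs per library set to 3. Genes were called at 2-fold or more in the same direction in all 4 libraries, at 1 UMI per 10000 or more in either population. Clusters came from k-means (4 clusters, fixed seed) on 10 principal components of 1500 variable genes of log-normalized counts, without the genes of the rule (Python 3.11.15, scanpy 1.11.5, scikit-learn 1.9.0, scipy 1.17.1, numpy 2.4.6). The step that takes ratios and calls genes was tested on simulated data, and the clustering was not.

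Levels have exact Poisson and shares exact binomial (Clopper-Pearson) 95% intervals, for counting error alone. Depth was 1449 to 46340 UMIs per barcode by the limits. Scrublet marked 0 of 26658 barcodes, so it did not work here, and doublets were not removed. The C1q limit was read as UMIs per 10000, and at least 20 UMIs was the alternative.

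The members, the gene lists and the clusters' markers were chosen with earlier results of these data known. Named genes were those of the rule, the 15 highest and 15 lowest called genes by median ratio, called list members with up to 4 more of each list by level, and the 8 leading genes of a cluster. Adgre4, Saa3, Rsad2, Itgb7 and other genes that differed between libraries, groups of C1q or 6 clusters were named after their values were seen. Alternatives changed the limits of the rule, the depth, the macrophage rule, the floor on level, the fold and the number of clusters, and left out each library. Leaving out clusters 3 and 4 was chosen after seeing the data.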

Additional observations from a re-analysis of the deposited data

How the results depend on the processing

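The share of members among barcodes within the limits, 4.42%, was 6.23% at a limit of 5 UMIs of the monocyte genes, 3.38% at 12 UMIs, 5.09% at 8 per 10000, 3.83% without members at the C1q limit, 3.45% at 10000 to 30000 UMIs, 3.68% without the deepest barcodes, 3.93% with at least 4 Cd14 UMIs, 3.84% without clusters 3 and 4, and 3.32% to 5.61% with each library left out. The 88 higher and 78 lower genes became 263 and 208 at a level of 0.2 per 10000, 768 and 439 with no minimum level, 34 and 39 at 3-fold, and 94 to 114 and 80 to 96 with each library left out, where only 3 libraries had to pass. Of 825 values of 55 named genes under alternatives, 745 moved by less than the spread between libraries (1 SD), 77 moved by more, and 3 changed direction: Sparc was at -0.65 with at least 4 Cd14 UMIs and at -2.67 without clusters 3 and 4, and Col1a2 at -0.22 without them. The neutrophil-like and fibroblast-like barcodes numbered 136 and 18 with 4 clusters, 140 and 18 with 3, and 132 and 18 with 6. Cxcl13 had a median log2 ratio of -7.07 to -5.58 with each library left out, Ptprm -4.92 to -3.64, Col1a1 7.17 to 8.48 and Col1a2 6.63 to 8.08. Members and macrophages were compared within each library throughout. No paired analysis was possible because, for the conditions, the matrix gives library numbers that the labels do not tie to replicate numbers, and no result comes from a test. Lowly expressed genes, library 2 with 94 members and cluster 4 with 18 barcodes are limited most by counting error.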

Other observations

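With 6 clusters, 23 members, most of them from the MHC class II group, stood apart, and 18, 3, 1 and 1 of them lay in libraries 1 to 4. They held the plasmacytoid dendritic cell markers Tcf4 at 41.1, Bst2 at 24.8, Siglech at 13.2 and Ccr9 at 11.0 UMIs per 10000, with the glutamate receptor gene Grm8 at 10.4, and Cd14 at 2.66. Among the leading genes were also Dntt at 1.53, Mzb1 at 1.20 and the light chain gene Iglc2 at 1.89. The NK cell markers Ncr1 and Gzma were at 0 over all members. Of the genes of the rule they held Plac8 at 29.3, Ccr2 at 3.60 and Vcan at 0 UMIs per 10000.

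Some genes too low to be counted were still far apart between members and macrophages. Ear2, an eosinophil-associated ribonuclease that circulating monocytes also make, had 478 UMIs in members and 4 in macrophages, or 0.239 and 0.000439 UMIs per 10000. The integrin subunit Itgb7 was at 0.717 and 0.0262. Mmp8, a collagenase stored in neutrophil granules, was at 0.315 and 0.0137, and at 0.330 without clusters 3 and 4, so its level was not lower without the neutrophil-like barcodes. Il12b, a subunit of interleukin-12, was lower, with 13 UMIs in members and 3203 in macrophages. In cluster 4 the antimicrobial lectins Reg3g at 18.3 and Reg1 at 16.1 UMIs per 10000 stood beside the collagens.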
